A study of Homo sapiens with 16 samples.

Results

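The E2F transcription factors are the 8 genes named E2F1 to E2F8 in the count tables, and they were picked out by gene symbol. They were 8 of the 20314 genes counted in U251 cells and 8 of the 20626 counted in U343 cells. All 8 passed the filter on low counts in every comparison. Their reads came to between 0.0344% and 0.0644% of a library.

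E2F proteins bind promoters of genes needed for DNA replication and mitosis, and the retinoblastoma pocket proteins hold them back until cyclin-dependent kinases act on those pocket proteins as a cell leaves G1. E2F1, E2F2 and E2F3 are the activators, E2F4 and E2F5 bind the pocket proteins p107 and p130 and repress in resting cells, E2F6 represses with Polycomb proteins, and E2F7 and E2F8 are atypical repressors that bind DNA without a dimerization partner. Glioblastomas often carry lesions in this retinoblastoma and cyclin-dependent kinase pathway.

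U251 and U343, both human glioblastoma cell lines, received either the miR-137 mimic or the control miRNA mimic at 25 nM, carried by Lipofectamine RNAiMax, and collected at 48 hours. RNASeq read total RNA and RIPSeq read the RNA that came down with antibodies against poly(A)-binding protein (PABP), both after removal of ribosomal RNA. RIPSeq was used in the study because miRNA action can detach PABP from the tails of target mRNAs. Each of the 4 experiments (RNASeq and RIPSeq in either line) had 2 control and 2 miR-137 libraries, 16 in all, and a further U251 replicate that the study mentions was not analysed here.

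Every group, the controls included, went through transfection with a synthetic mimic, so no library shows untransfected cells. U251 libraries were primed with random hexamers and U343 libraries were made with the TotalScript kit, so that cell line and library kit cannot be told apart. Nothing in the labels says that the 2 libraries of a group came from separate cultures, and p-values measure only the spread between these libraries. Groups of 2 libraries can lie apart without a change past the threshold, as those of E2F8 did in U251 RIPSeq. The share of all genes whose groups lay apart was not counted. In bulk RNA of this kind, fewer cells in a cell cycle phase and less RNA per cell cannot be told apart.

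The transfected miRNA is shown first because its seed decides which transcripts it can pair with. The mature strand in RefSeq (GRCh38.p14, minus strand, chr1:98046091-98046113) is printed with bases 2 to 8, the seed, in capitals.
hsa-miR-137-3p: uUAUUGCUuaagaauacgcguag

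Promoter windows follow for the activator genes, whose promoters are known to be bound by E2F proteins themselves. RefSeq windows (GRCh38.p14) run from 250 bases before the gene start to 50 bases from it on, and 6 of the 8 genes had one. The 4 words of the E2F site searched, TTTGGCGC, TTTGCCGC, TTTCGCGC and TTTCCCGC, are in capitals where either strand held them.
E2F1, chr20:33686336-33686635, minus strand: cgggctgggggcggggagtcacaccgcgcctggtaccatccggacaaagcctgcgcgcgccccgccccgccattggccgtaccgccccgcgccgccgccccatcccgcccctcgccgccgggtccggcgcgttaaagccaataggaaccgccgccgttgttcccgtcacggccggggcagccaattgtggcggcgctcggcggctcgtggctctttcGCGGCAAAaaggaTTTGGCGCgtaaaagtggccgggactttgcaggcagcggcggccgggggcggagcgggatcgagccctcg
E2F2, chr1:23531184-23531483, minus strand: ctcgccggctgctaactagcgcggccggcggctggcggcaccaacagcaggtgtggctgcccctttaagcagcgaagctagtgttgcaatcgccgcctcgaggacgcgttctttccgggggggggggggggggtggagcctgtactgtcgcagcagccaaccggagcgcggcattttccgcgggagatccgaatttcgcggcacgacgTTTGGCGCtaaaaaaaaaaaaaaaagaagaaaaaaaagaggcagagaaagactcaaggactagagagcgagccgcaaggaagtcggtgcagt
E2F3, chr6:20401629-20401928, plus strand: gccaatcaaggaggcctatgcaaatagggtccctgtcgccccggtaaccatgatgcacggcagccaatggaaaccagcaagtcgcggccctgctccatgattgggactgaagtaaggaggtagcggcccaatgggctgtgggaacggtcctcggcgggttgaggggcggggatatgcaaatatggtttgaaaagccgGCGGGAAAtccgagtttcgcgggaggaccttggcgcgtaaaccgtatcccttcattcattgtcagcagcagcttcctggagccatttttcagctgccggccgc

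E2F1 held 2 of the words, beginning 33 and 20 bases before the start, E2F2 held 1 at 42 bases and E2F3 held 1 at 53 bases in the first of its 2 windows. E2F4, E2F6 and E2F7 held none of them, which says only that these letters are not in those windows. Of all 35116 windows, 3.31% held at least 1 of the words, on their own between 0.515% and 1.63%. Counted by gene, the share was 3.99% of 27305 genes, 3 of the 6 E2F genes with a window, 13 of 24 G1/S target genes and 0 of 10 G2/M genes.

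Depth ran from 10156675 to 18224061 counted reads in U251 RNASeq and from 22359794 to 45134766 elsewhere. In 2 groups the libraries stood apart. The U251 RIPSeq controls differed by a median of 0.67 on the log2 scale over all genes, against 0.06 for the miR-137 libraries of that experiment. In U343 RNASeq, 12 interferon-stimulated genes summed to 149 CPM (read counts scaled to the TMM-adjusted library size) in miR-137 replicate 1 and to 12971 CPM in replicate 2, with 198 and 207 CPM in the controls. CDK6, a known miR-137 target, was low in both of those libraries, at a mean of 86.4 ± 7.30 CPM (SD, n = 2) against 594 ± 69.7 CPM in the controls. Glial identity was mixed: VIM, CD44, NES and SOX2 were present in both lines, GFAP reached only 32.8 CPM in U251 against 4710 CPM in U343 RNASeq, and SLC1A3 stayed at or under 1.56 CPM in U343. PTPRC of leukocytes and EPCAM of epithelia stayed at or under 0.722 CPM and 0.191 CPM. Other epithelial markers were expressed, KRT8 up to 180 CPM and KRT18 up to 195 CPM in U251 RIPSeq and CDH1 at 63.8 to 120 CPM in U343 RNASeq. Endothelial TEK, VWF and CDH5 reached 40.0, 28.6 and 27.2 CPM in U343 RNASeq, and KDR reached 29.1 CPM in U251 RNASeq.

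**Figure D1:**
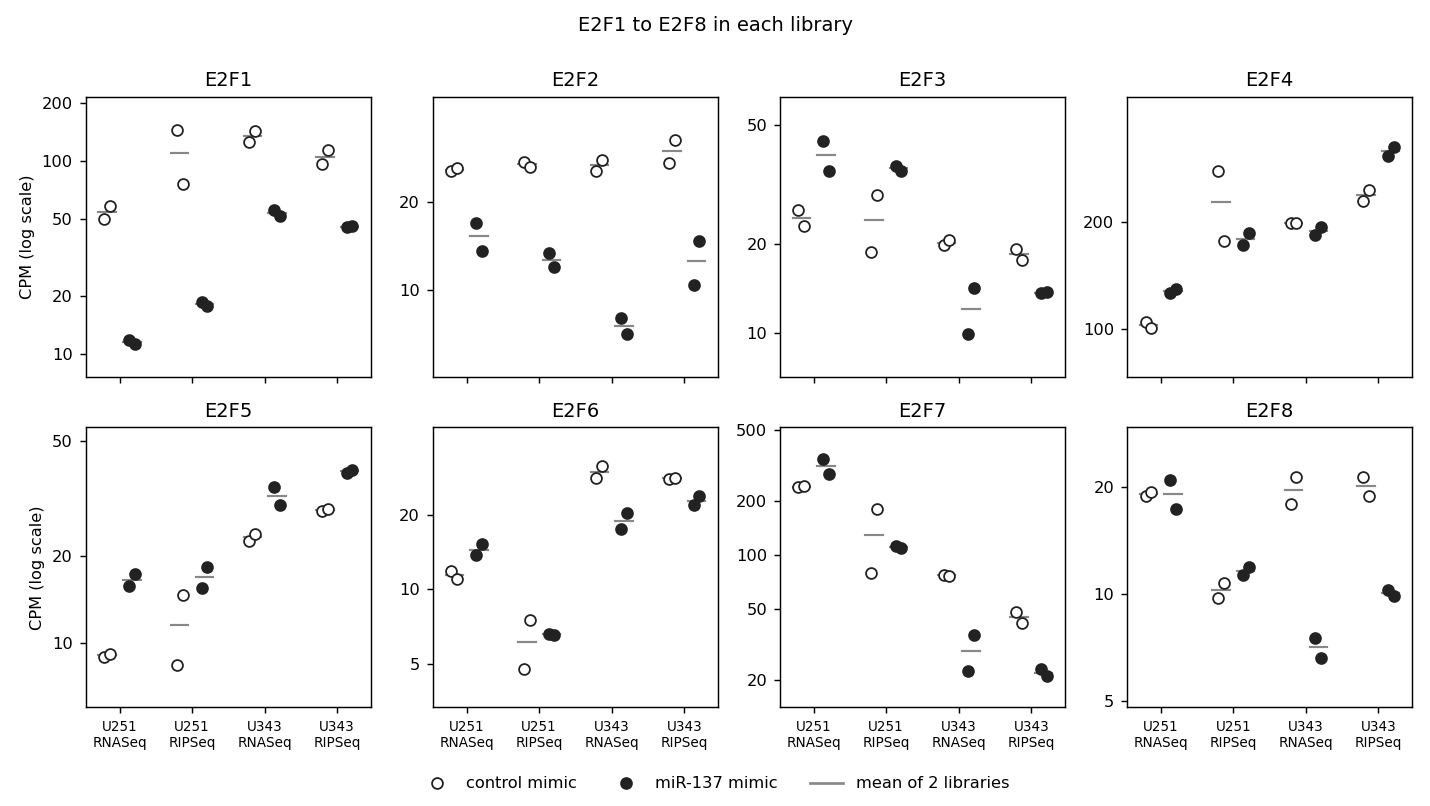
CPM (read counts scaled to the TMM-adjusted library size, log axis, its range set per gene) of E2F1 to E2F8 in every library, open circles for the control mimic, filled circles for the miR-137 mimic and a grey bar for the mean of 2 libraries. E2F1 and E2F2 lie below their controls in all 4 experiments, E2F5 lies above, and every miR-137 library lies below the controls for E2F7 and E2F8 in U343.

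The first question was which E2F genes changed with miR-137 in each experiment. E2F1 and E2F2 fell in U251 RNASeq and in both U343 experiments, and E2F5 rose in U251 RNASeq and U343 RIPSeq. E2F8 fell in both U343 experiments, and E2F3 and E2F7 rose in U251 RNASeq and fell in U343 RIPSeq. In U251 total RNA 2 members fell and 4 rose, where 29.0% and 28.7% of all 13052 genes tested did so. In U343 total RNA 5 members fell and 0 rose, against 11.7% and 8.31% of 15088 genes. The median change of the 8 was 0.33 on the log2 scale in U251 RNASeq and -1.03 in U343 RNASeq, beside 0.02 in either line over all genes. With upper-quartile scaling the U251 median over all genes was 0.16, and 3001 genes fell and 4588 rose in place of 3780 and 3749.

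In U343 PABP-bound RNA 6 members fell and 2 rose, where 27.8% of 14866 genes fell and 28.5% rose, with a median of -0.71 for the members and 0.00 for all genes. In U251 RIPSeq no member passed the test in either direction, and only 0.263% of 14087 genes fell and 0.944% rose. edgeR put 2 members at an unadjusted p under 0.05 there, as it did 2828 of the 14087 genes. DESeq2 called 1 member, E2F1, and over all genes 325 lower and 516 higher of 13287. With either control library left out, 3 members were called lower, and 2 or 5 were called higher, in fits that let the lone control vary like the miR-137 pair. Those fits called 5052 genes lower and 4689 higher of 14309 without control replicate 1, and 5366 lower and 6304 higher of 15682 without replicate 2, so most genes were called.

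**Figure D2:**
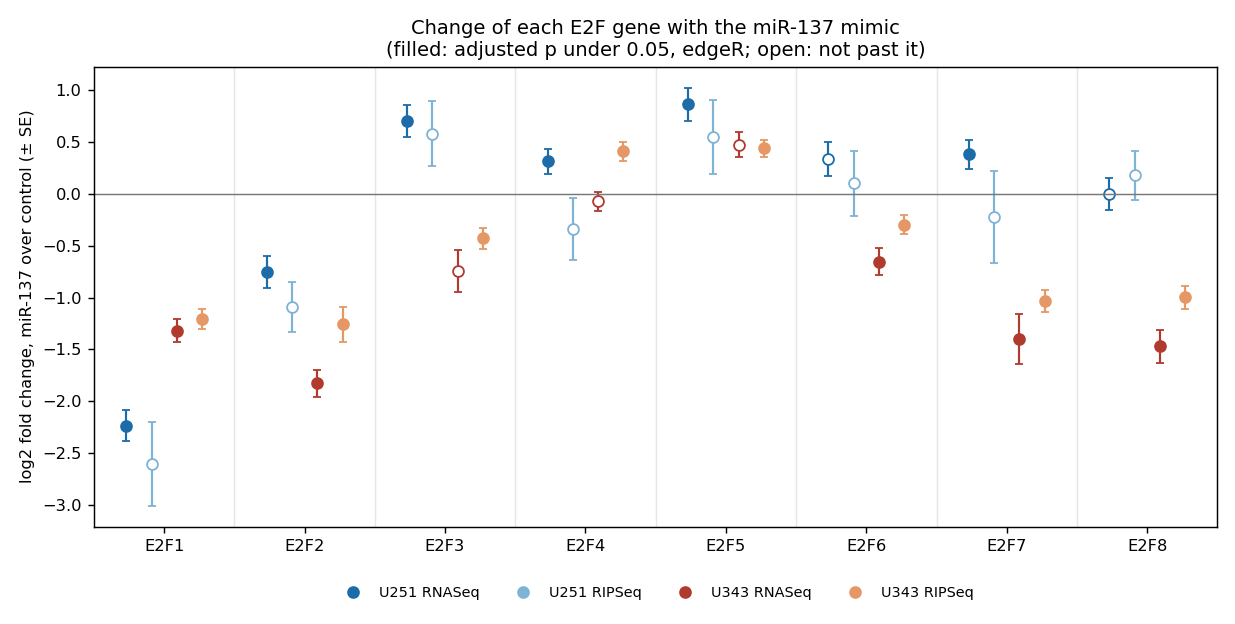
log2 fold change of each E2F gene with the miR-137 mimic over the control mimic in the 4 experiments, with bars for the standard error of the edgeR fit, filled circles for an adjusted p under 0.05 and open circles otherwise. Changes of E2F1 run from -2.60 to -1.21, and those of E2F7 and E2F8 are near 0 or above in U251 RNASeq and at -1.40 and -1.47 in U343 RNASeq.

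E2F1, the activator most often tied to S-phase entry and also to cell death, lies at chr20:31726953-31737871 on the minus strand (hg18). In U251 RNASeq it was at 49.8 and 58.0 CPM in the controls and at 11.7 and 11.2 CPM with miR-137. In U251 RIPSeq the controls had 144 and 75.7 CPM, and the miR-137 libraries had 18.5 and 17.8 CPM. Both experiments had a wide gap between the groups, and the PABP-bound controls differed most from each other. In U343 RNASeq E2F1 was at 125 and 142 CPM in the controls and at 55.2 and 51.9 CPM with the mimic. U343 RIPSeq gave 96.4 and 113 CPM against 45.1 and 45.8 CPM. No miR-137 library reached any control library in either line.

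E2F1 fell by 2.23 on the log2 scale in U251 RNASeq (SE 0.15, adjusted p = 7.86e-08), a level 78.8% lower. The change in U251 RIPSeq was -2.60 (SE 0.40), which did not pass the test (adjusted p = 0.0731). Without control replicate 1 it was -2.07 and without replicate 2 it was -2.91. With every library kept, DESeq2 called the fall (adjusted p = 2.71e-06). In U343 the fall was 59.9% in total RNA (log2 change -1.32, SE 0.11, adjusted p = 0.00748) and 56.6% in PABP-bound RNA (log2 change -1.21, SE 0.10, adjusted p = 4.83e-05).

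E2F2, an activator expressed mainly in dividing cells, lies at chr1:23705509-23730300 on the minus strand (hg18). U251 RNASeq held 25.6 and 26.2 CPM in the controls and 17.1 and 13.7 CPM with miR-137. U251 RIPSeq held 27.6 and 26.4 CPM against 13.4 and 12.03 CPM. For this gene the U251 RIPSeq controls were close together, unlike those of E2F1. U343 RNASeq had 25.7 and 27.9 CPM in the controls and 8.05 and 7.05 CPM with the mimic, and U343 RIPSeq had 27.3 and 32.8 CPM against 10.4 and 14.7 CPM. Groups did not overlap in any experiment.

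E2F2 fell by 0.75 on the log2 scale in U251 RNASeq (SE 0.16, adjusted p = 0.00111) and by 1.83 in U343 RNASeq (SE 0.13, adjusted p = 0.00711). In U343 RIPSeq it fell by 1.26 (SE 0.17, adjusted p = 0.000546). The U251 RIPSeq change of -1.09 (SE 0.24) did not pass the test (adjusted p = 0.121). It passed when 1 fit took in all 8 U251 libraries (-1.12, adjusted p = 0.00896).

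E2F3, the activator whose gene is often gained in bladder tumours, lies at chr6:20510116-20601924 on the plus strand (hg18), and 2 pseudogenes named after it could share reads with it. In U251 RNASeq the controls had 26.0 and 22.9 CPM and the miR-137 libraries had 44.4 and 35.1 CPM. U251 RIPSeq had 18.8 and 29.1 CPM against 36.5 and 35.2 CPM. Both U251 experiments thus had E2F3 higher with miR-137, with no overlap. In U343 RNASeq the controls were at 19.7 and 20.6 CPM and the miR-137 libraries at 9.95 and 14.2 CPM, and in U343 RIPSeq the levels were 19.2 and 17.6 CPM against 13.6 and 13.7 CPM. Here the order of the groups was the opposite one.

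E2F3 rose in U251 RNASeq (log2 change 0.70, SE 0.15, adjusted p = 0.00156) and fell in U343 RIPSeq (-0.43, SE 0.10, adjusted p = 0.00769). The other changes, 0.58 (SE 0.31, adjusted p = 0.384) in U251 RIPSeq and -0.74 (SE 0.20, adjusted p = 0.0722) in U343 RNASeq, did not pass the test. DESeq2 called the latter at an adjusted p of 0.0088. The U251 RNASeq rise was lost in the joint fit of 8 libraries (0.72, adjusted p = 0.0763). The fall in U343 RIPSeq was no longer called in the joint fit (-0.44, adjusted p = 0.0679) or without control replicate 1 (-0.37).

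E2F4, the main E2F of resting cells, lies at chr16:65783569-65790322 on the plus strand (hg18), with 1 pseudogene named after it. U251 RNASeq gave 105 and 101 CPM in the controls and 127 and 130 CPM with the mimic. U251 RIPSeq gave 278 and 177 CPM against 173 and 187 CPM, where the groups overlapped. U343 RNASeq gave 198 and 199 CPM against 185 and 194 CPM. U343 RIPSeq controls were at 230 and 246 CPM, below the 307 and 326 CPM of the miR-137 libraries. E2F4 rose in U343 RIPSeq (log2 change 0.41, SE 0.09, adjusted p = 0.0069) and in U251 RNASeq (0.31, SE 0.12, adjusted p = 0.0408). The latter call was lost in DESeq2 (adjusted p = 0.108) and without control replicate 1, control replicate 2 or miR-137 replicate 2 (0.28 to 0.33), and the former without control replicate 1 (0.36). Neither U251 RIPSeq (-0.34, SE 0.30) nor U343 RNASeq (-0.07, SE 0.09) had a change past the threshold.

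E2F5, the partner of p130, overlaps the gene C8orf59 by 467 bases, so reads in the shared stretch may belong to either. In U251 RNASeq its controls were at 9.01 and 9.18 CPM (141 and 150 reads) and its miR-137 libraries at 15.8 and 17.3 CPM. U251 RIPSeq had 8.45 and 14.7 CPM against 15.6 and 18.3 CPM. U343 RNASeq had 22.6 and 23.9 CPM against 34.7 and 30.0 CPM. U343 RIPSeq had 28.6 and 29.1 CPM in the controls and 38.8 and 39.6 CPM with the mimic. The groups did not overlap in any of the 4 experiments, which was not counted over all genes. The rise passed the test in U251 RNASeq (log2 change 0.86, SE 0.16, adjusted p = 0.000539) and U343 RIPSeq (0.44, SE 0.08, adjusted p = 0.00261). In U251 RIPSeq (0.55, SE 0.36) and U343 RNASeq (0.47, SE 0.12) the adjusted p was 0.459 and 0.0612. In the joint fit of 8 libraries the U251 RNASeq call was lost (0.88, adjusted p = 0.053).

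E2F6, which represses germline genes as part of a Polycomb complex, lies at chr2:11501952-11523748 on the minus strand (hg18), and 4 pseudogenes bear its name. Levels in U251 were 11.9 and 11.01 CPM in RNASeq controls against 13.7 and 15.2 CPM with miR-137. RIPSeq in U251 gave 4.76 and 7.48 CPM against 6.62 and 6.55 CPM, with overlap. U343 had 28.1 and 31.5 CPM in RNASeq controls and 17.5 and 20.3 CPM with the mimic. In U343 RIPSeq, 27.9 and 28.1 CPM stood above 21.8 and 23.8 CPM. E2F6 fell in U343, in RNASeq (log2 change -0.65, SE 0.13, adjusted p = 0.0374) and in RIPSeq (-0.30, SE 0.09, adjusted p = 0.0249). The RIPSeq call was lost in DESeq2 (adjusted p = 0.0521), in the joint fit of 8 libraries (adjusted p = 0.0563), and without either control or without miR-137 replicate 1. U251 RNASeq had a change of 0.34 (SE 0.16, adjusted p = 0.0935), which passed with upper-quartile scaling (0.48) or a minimum of 50 reads (0.41).

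E2F7, an atypical repressor that switches off E2F1 late in S phase, lies at chr12:75939157-75983491 on the minus strand (hg18). U251 RNASeq had 239 and 242 CPM in the controls and 346 and 283 CPM with miR-137. U251 RIPSeq had 79.1 and 180 CPM in its controls (1844 and 5021 reads) and 113 and 109 CPM with miR-137. The miR-137 libraries thus lay between the 2 controls. In U343 RNASeq the controls were at 77.3 and 76.4 CPM, and miR-137 replicates 1 and 2 were at 22.5 and 35.7 CPM. U343 RIPSeq had 48.1 and 41.6 CPM against 23.0 and 21.0 CPM. Both U343 experiments had the miR-137 libraries below the controls with no overlap.

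E2F7 rose in U251 RNASeq by 0.38 on the log2 scale (SE 0.14, adjusted p = 0.0295) and fell by 62.1% in U343 RNASeq (log2 change -1.40, SE 0.24, adjusted p = 0.0266) and by 51.0% in U343 RIPSeq (-1.03, SE 0.10, adjusted p = 0.000134). The rise was no longer called without control replicate 1, control replicate 2 or miR-137 replicate 1, where it ranged from 0.24 to 0.39. In U251 RIPSeq the change was -0.22 (SE 0.44). Its sign rested on 1 library, with -0.70 without control replicate 1 and 0.58 without control replicate 2.

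E2F8, the second atypical repressor, lies at chr11:19202186-19219083 on the minus strand (hg18). U251 RNASeq levels were 18.9 and 19.4 CPM in the controls and 20.9 and 17.4 CPM with the mimic, which overlapped. U251 RIPSeq levels were 9.74 and 10.8 CPM against 11.3 and 11.96 CPM. In U343 RNASeq E2F8 dropped from 18.0 and 21.4 CPM to 7.55 and 6.63 CPM, and in U343 RIPSeq from 21.3 and 18.9 CPM to 10.2 and 9.91 CPM. Every U343 library with miR-137 was below every control. The log2 change was 0.00 (SE 0.15) in U251 RNASeq and 0.18 (SE 0.24) in U251 RIPSeq, neither past the threshold. It was -1.47 (SE 0.16, adjusted p = 0.0109) in U343 RNASeq and -0.997 (SE 0.11, adjusted p = 0.000185) in U343 RIPSeq.

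Because U343 RNASeq miR-137 replicate 1 lacked the interferon-stimulated rise, each U343 RNASeq change was also taken against either miR-137 library alone. E2F1 changed by -1.37 without replicate 1 and by -1.27 without replicate 2, E2F2 by -1.93 and -1.73, and E2F8 by -1.57 and -1.38. E2F7 moved more, to -1.11 without replicate 1 and -1.77 without replicate 2. 6 of the members were called lower in either fit, and E2F5 was called higher in both. Over all genes these fits called 3152 lower and 2994 higher of 15509, and 2951 lower and 2811 higher of 15281, more than with both libraries. Without control replicate 1 or 2 instead, edgeR called 0 of the 15426 or 15539 genes tested, the members included, with 2776 and 2675 genes at an unadjusted p under 0.05. E2F1 then changed by -1.40 and -1.22.

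Next, the genes that E2F proteins work with were counted in the same fits. TFDP1, the common dimerization partner, was lower with miR-137 in 3 of 4 experiments. It went from 126 ± 2.18 to 64.1 ± 0.262 CPM (SD, n = 2) in U251 RNASeq (log2 change -0.98, SE 0.12, adjusted p = 1.86e-05), and fell by 0.61 (SE 0.12, adjusted p = 0.0325) and 0.55 (SE 0.09, adjusted p = 0.00116) in U343 RNASeq and RIPSeq. In U251 RIPSeq its change was -0.71 (SE 0.22, adjusted p = 0.194). TFDP1 has 3 pseudogenes named after it. TFDP2, the other partner, is counted only in the U343 tables and fell in RIPSeq by 0.24 (SE 0.08, adjusted p = 0.0445), beside -0.31 (SE 0.15, adjusted p = 0.207) in RNASeq. DESeq2 called 1 of these 2 partners in U343 RIPSeq.

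RBL1, which encodes p107 and is itself an E2F target, fell by 0.73 (SE 0.13, adjusted p = 0.000318) in U251 RNASeq, by 1.47 (SE 0.14, adjusted p = 0.00868) in U343 RNASeq and by 0.86 (SE 0.10, adjusted p = 0.000257) in U343 RIPSeq. In U251 RIPSeq its change was 0.01 (SE 0.45). RBL2, which encodes p130 and overlaps AKTIP by 369 bases, fell in U343 RIPSeq alone (-0.41, SE 0.08, adjusted p = 0.00342), with changes of -0.30, -0.38 and -0.25 in U251 RNASeq, U251 RIPSeq and U343 RNASeq. RB1, the retinoblastoma gene, passed the test in none of the 4, with changes of 0.05 (SE 0.14) and 0.58 (SE 0.70) in U251 RNASeq and RIPSeq and -0.03 in either U343 experiment. It spans LPAR6, so reads of that gene may be counted in it.

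The G1 cyclins and their kinases, which relieve the pocket proteins, fell in part. CDK6 went from 1572 ± 43.9 to 136 ± 19.0 CPM (SD, n = 2) in U251 RNASeq (log2 change -3.53, SE 0.17, adjusted p = 1.62e-09). Its log2 change was -2.78 (SE 0.14, adjusted p = 0.00647) in U343 RNASeq and -3.198 (SE 0.12, adjusted p = 1.71e-06) in U343 RIPSeq. CCNE1, the cyclin of late G1 and an E2F target, fell by 2.64 (SE 0.17), 2.08 (SE 0.11) and 1.67 (SE 0.09) in the same 3 experiments. Of the list, 5 of 7 tested genes fell in U251 RNASeq and 4 of 8 in both U343 experiments, and 1, CCND3, rose in U343 RIPSeq (0.48, SE 0.11). The share of all genes that fell was 29.0% in U251 RNASeq and 11.7% and 27.8% in U343 RNASeq and RIPSeq. In U251 RIPSeq edgeR called 0 of 8 (3 at an unadjusted p under 0.05, 2 by DESeq2). The list's median there ran from -0.35 to -0.11 with 1 library left out.

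The G1/S target list holds 30 genes of replication and repair that E2F proteins are known to switch on, such as CDT1, CCNE1 and MYBL2. In U251 RNASeq 23 of 30 fell and 0 rose (median log2 change -0.66). In U343 29 of 30 fell in RNASeq (median -1.35) and 29 in RIPSeq (median -0.83). Of all genes, 29.0%, 11.7% and 27.8% fell in these experiments. CDT1 fell by 1.85 (SE 0.34, adjusted p = 0.0295) in U343 RNASeq. MYBL2 fell from 139 ± 3.19 to 35.4 ± 1.61 CPM (SD, n = 2) in U251 RNASeq. The list was chosen with earlier results of these data known, and its directions are not independent evidence. In U251 RIPSeq none was called (median -0.38). There 9 were at an unadjusted p under 0.05 in edgeR, as were 2828 of 14087 genes, and DESeq2 called 3.

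The count of calls in the G1/S list depended on single libraries, as did that over all genes, so only medians are given for those fits. With 1 library left out the list's median log2 change ran from -0.45 to -0.34 in U251 RIPSeq. It ran from -1.54 to -1.20 in U343 RNASeq. Summed over the list, U343 RNASeq had 6577 and 6837 CPM in the controls and 2407 and 2867 CPM in miR-137 replicates 1 and 2.

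**Figure D3:**
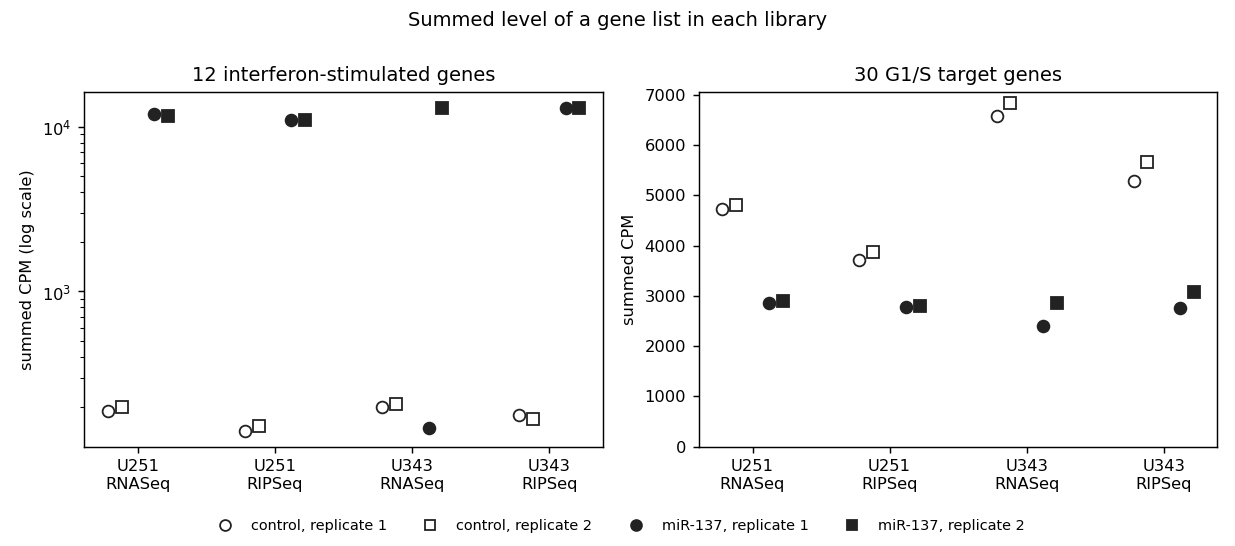
Summed CPM of 12 interferon-stimulated genes (left, log axis) and of 30 G1/S target genes (right, axis from 0) in every library, open for the control mimic, filled for the miR-137 mimic, circles for replicate 1 and squares for replicate 2. U343 RNASeq miR-137 replicate 1 sits with the controls at 149 CPM on the left and at 2407 CPM, below every control, on the right.

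Genes of G2 and mitosis, which E2F1 to E2F3 and the MYB-MuvB complex drive later in the cycle, differed between the lines. All 15 fell in both U343 experiments (medians -1.43 in RNASeq and -1.48 in RIPSeq), led by AURKA (-2.19 and -2.36, SE 0.10 and 0.08) and CENPF (-1.98 and -2.21, SE 0.10 for both). In U251 RNASeq 6 of 15 fell (median -0.30), BIRC5 by 0.65 (SE 0.14) and CENPF by 0.62 (SE 0.15) the most. Of all genes, 11.7% fell in U343 RNASeq, 27.8% in U343 RIPSeq and 29.0% in U251 RNASeq. In U251 RIPSeq none passed (4 at an unadjusted p under 0.05 in edgeR, 0 by DESeq2). The list's median there ran from -0.64 to -0.04 with 1 library left out. The difference between the lines was called for 14 of the 15 in RNASeq, all with a larger fall in U343, and for 5 in RIPSeq. Over all genes it was called for 25.2% in RNASeq and 3.28% in RIPSeq.

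**Figure D4:**
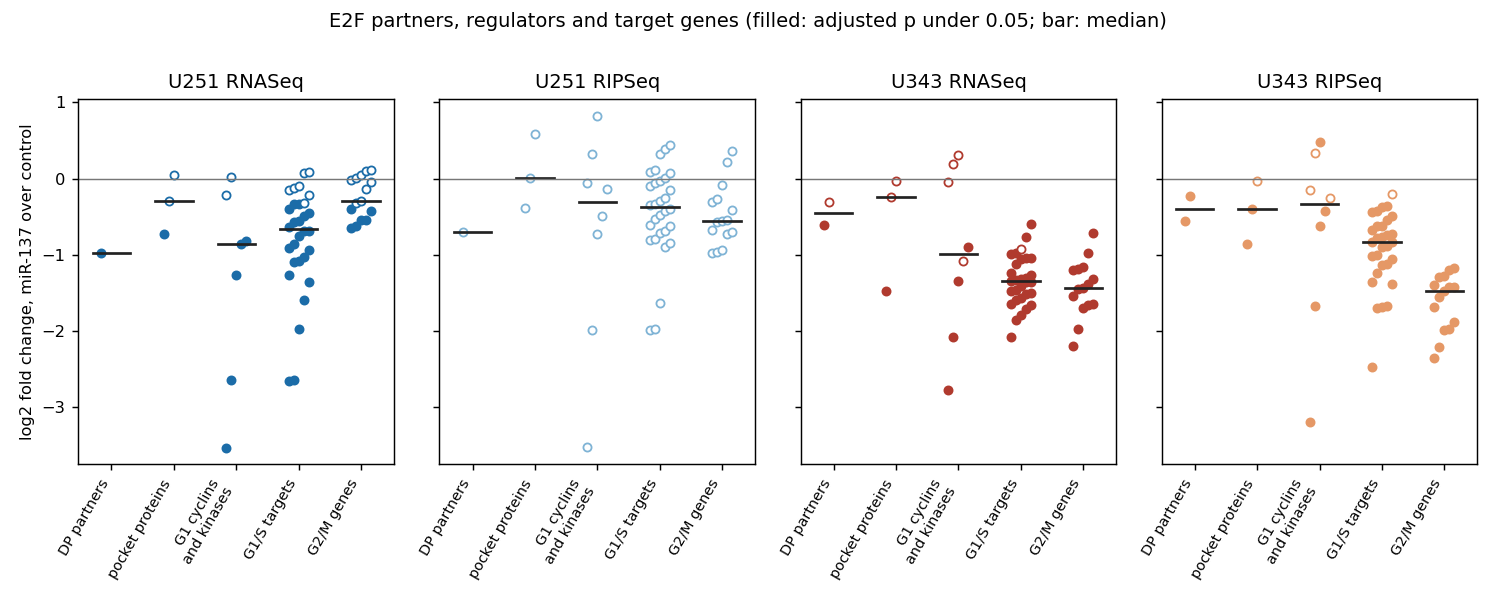
log2 fold change with miR-137 over control of each tested gene of 5 lists in the 4 experiments, filled for an adjusted p under 0.05 and open otherwise, with a bar at the list's median. In U343 the G1/S list has medians of -1.35 and -0.83 and the G2/M list of -1.43 and -1.48, while in U251 RIPSeq every circle is open.

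Smaller groups around the family moved in part. Of the MuvB core and MYBL2, 3 of 6 fell in U251 RNASeq and 4 of 6 in both U343 experiments, with MYBL2 at -1.98 (SE 0.13) in U251 RNASeq and LIN9 at -1.19 (SE 0.12) in U343 RNASeq, while LIN37 rose in U251 RNASeq (0.58, SE 0.19). In the E2F6 complex 3 of 7 tested genes fell in U251 RNASeq and 3 of 8 in both U343 experiments. Beside both groups, 29.0% of all genes fell in U251 RNASeq, 11.7% in U343 RNASeq and 27.8% in U343 RIPSeq. PCGF6, a Polycomb ring protein of that complex, fell by 1.05 (SE 0.17), 1.96 (SE 0.24) and 1.58 (SE 0.17) in those experiments, and RYBP rose in U343 (0.52 and 0.85, SE 0.12 and 0.13). None of the germline genes that E2F6 silences was called in any experiment (edgeR, 0 at an unadjusted p under 0.05), with 1 to 3 of 5 expressed enough to test.

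Interferon-stimulated genes rose in 3 experiments, 12 of 12 in U251 RNASeq and RIPSeq and 11 of 12 in U343 RIPSeq, by medians of 6.51, 7.22 and 7.46. In the same order 28.7%, 0.944% and 28.5% of all genes rose. In U343 RNASeq 0 of 12 were called (6 at an unadjusted p under 0.05, 8 by DESeq2) and 11 were called higher without miR-137 replicate 1. Their part in the E2F changes was not tested. CD68, a macrophage marker, rose in U251 RNASeq (3.19, SE 0.17), U251 RIPSeq (2.57, SE 0.27) and U343 RIPSeq (4.95, SE 0.15), while PTPRC stayed under 1 CPM. Of the 8 glial markers 6 fell in U251 RNASeq, GFAP the most (-3.18, SE 0.18), where 29.0% of all genes fell. In U343 2 rose in RNASeq, and 1 fell and 3 rose in RIPSeq, NES by 1.58 (SE 0.12) and 1.37 (SE 0.11). There 8.31% of all genes rose in RNASeq, and 27.8% fell and 28.5% rose in RIPSeq. Of the neuronal, endothelial and epithelial markers 1 to 5 a list could be tested, and at most 3 of a list passed in any experiment. In U343 RIPSeq endothelial CDH5 (-1.56, SE 0.22) and TEK (-1.14, SE 0.09) fell and VWF (1.02, SE 0.16) rose, where 27.8% and 28.5% of all genes did so. The part of these markers in the results was not tested.

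Whether miR-137 acted on the members differently in the 2 lines was tested directly. In RNASeq the change differed between U343 and U251 for 6 of the 8 members, where 25.2% of 15550 genes did. E2F1 fell less in U343, by a difference of 0.91 (SE 0.18, adjusted p = 0.00926). The other 5 had lower values in U343, with differences of -1.79 for E2F7 (SE 0.29, adjusted p = 0.0044), -1.48 for E2F8 (SE 0.23, adjusted p = 0.00381), -1.45 for E2F3 (SE 0.27, adjusted p = 0.00725), -1.08 for E2F2 (SE 0.22, adjusted p = 0.00996) and -0.997 for E2F6 (SE 0.21, adjusted p = 0.0106). E2F4 (-0.39, SE 0.15) and E2F5 (-0.40, SE 0.19) did not pass. Over all genes the median difference was -0.08.

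Some of these calls were close. E2F6 was no longer called without U251 control replicate 2, U251 miR-137 replicate 2 or U343 control replicate 2, nor was E2F2 without U343 control replicate 2. E2F3, E2F7 and E2F8 were called with any single library left out, as was E2F1.

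In RIPSeq no member differed between the lines by edgeR, where 3.28% of 15959 genes did. At an unadjusted p under 0.05 it had 4 members and 3353 of all genes. E2F1 (1.46, SE 0.43, adjusted p = 0.11) and E2F8 (-1.12, SE 0.25, adjusted p = 0.0608) were nearest. DESeq2 called those 2, and over all genes 650 lower and 1189 higher of 14594. Without U251 control replicate 1 the test called 4 members, and 2436 lower and 3068 higher of all 16323 genes. Without replicate 2 it called 7 members, and 4634 lower and 4479 higher of 17249 genes. These fits, and those on the assays, share their libraries with the comparisons within each experiment.

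**Figure D5:**
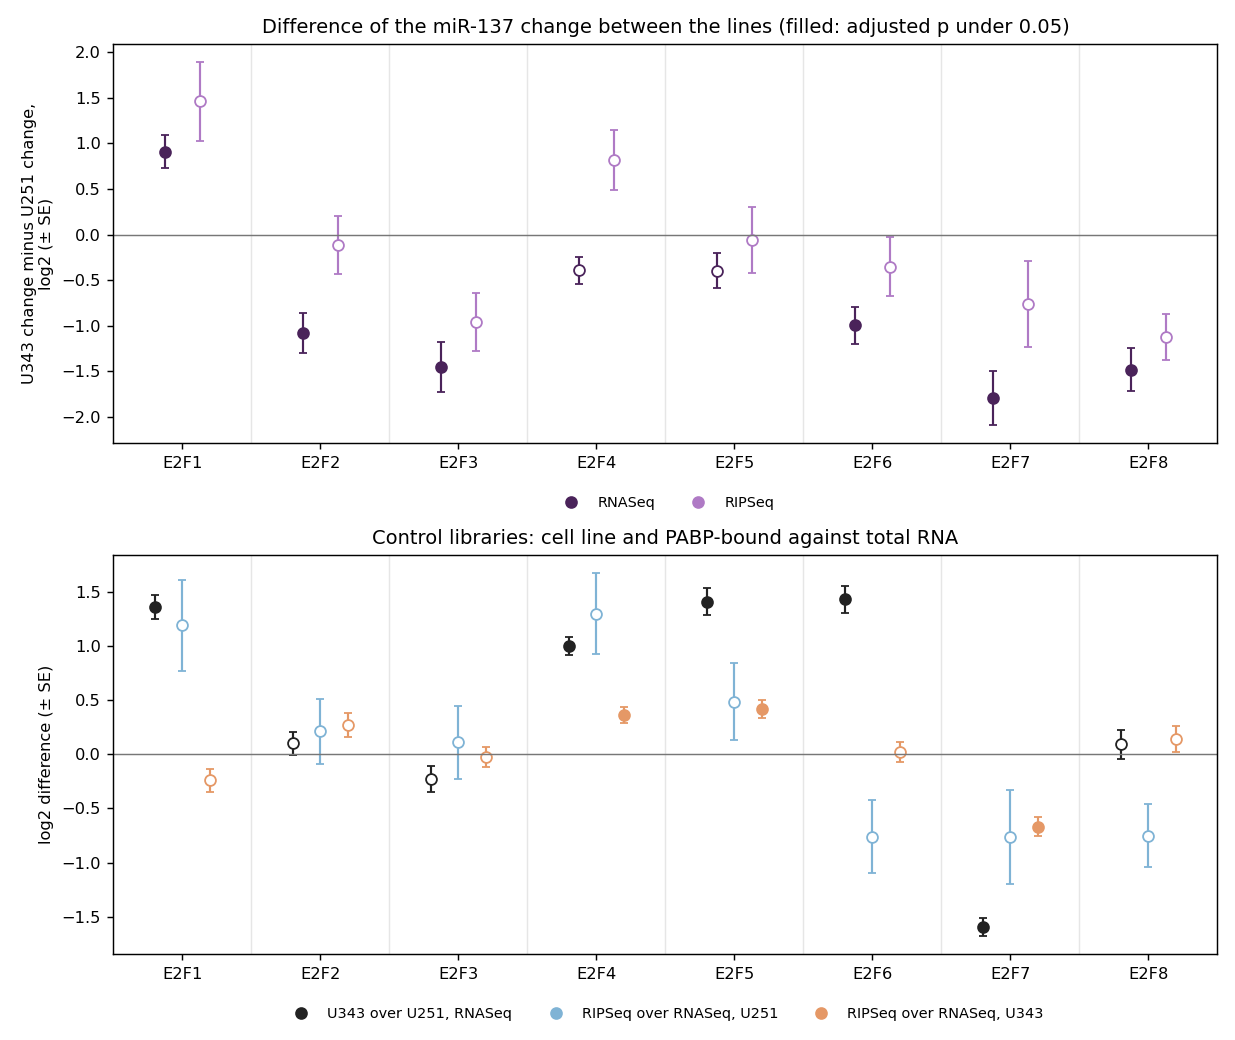
Top, the miR-137 change in U343 minus that in U251 for each E2F gene, in RNASeq and RIPSeq. Bottom, log2 differences among control libraries, U343 over U251 in RNASeq and RIPSeq over RNASeq in either line. Bars are standard errors and filled circles have an adjusted p under 0.05. In RNASeq E2F1 stands at 0.91 and E2F7 at -1.79 in the top panel, and E2F7 at -1.59 is the 1 member lower in U343 controls in the bottom panel.

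The second design question was whether PABP-bound RNA changed differently from total RNA. No member passed that test in U251, where 0.134% of 14210 genes did, nor in U343, where 0.00649% of 15413 genes did. At an unadjusted p under 0.05 edgeR had 0 members in U251 and 2 in U343, and DESeq2 called 0 and 1. The difference, RIPSeq change minus RNASeq change, was -0.42 (SE 0.44) for E2F1 in U251 and 0.11 (SE 0.15) in U343. E2F4 had the smallest unadjusted p of the members in U343, at 0.48 (SE 0.12, adjusted p = 0.196), and in U251 at -0.71 (SE 0.35, adjusted p = 0.311). E2F2 in U343 gave 0.57 (SE 0.25) and E2F8 gave 0.48 (SE 0.19). The median difference of the members was -0.37 in U251 and 0.36 in U343, beside -0.04 and -0.002 over all genes. A positive difference means that PABP-bound RNA stood higher against total RNA with miR-137 than without. No member passed the threshold, and with 1 library left out E2F7 in U343 ran from 0.08 to 0.72.

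PABP-bound and total RNA were also compared without the miR-137 mimic. In U343 controls E2F7 was lower in RIPSeq, at 46.8 ± 4.87 against 74.4 ± 0.600 CPM (SD, n = 2, log2 difference -0.67, SE 0.09, adjusted p = 0.000792). E2F4 (0.37, SE 0.07, adjusted p = 0.00543) and E2F5 (0.42, SE 0.08, adjusted p = 0.00501) were higher, the 2 pocket-protein-bound repressors. These were 3 of 8 members where 48.6% of 14878 genes were called, a share no higher than the background. In U251 no member was called, where 14.0% of 13242 genes were. At an unadjusted p under 0.05 edgeR had 3 members and 4882 of all genes there. DESeq2 called 1 member, and over all genes 1570 lower and 1503 higher of 14785. The largest U251 differences were 1.299 (SE 0.37, adjusted p = 0.0614) for E2F4 and 1.19 (SE 0.42, adjusted p = 0.0963) for E2F1, and E2F7 stood at -0.76 (SE 0.43). With either U251 RIPSeq control left out 5 members were called, in fits that called 3564 genes lower and 3695 higher of 13220 without replicate 1 and 5459 lower and 5709 higher of 14711 without replicate 2.

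Control levels also differed between the lines, for 5 of 8 members, where 84.8% of 14787 genes were called and the median over all genes was 0.10. Scaled together, E2F1 was at 132 ± 11.9 CPM in U343 and 51.2 ± 5.25 CPM in U251 (SD, n = 2, log2 difference 1.36, SE 0.11, adjusted p = 3.14e-06). E2F6 (1.43, SE 0.13), E2F5 (1.41, SE 0.13) and E2F4 (1.00, SE 0.09) were higher in U343 too. E2F7 went the other way, at 75.8 ± 0.451 CPM in U343 against 229 ± 0.826 CPM in U251 (-1.59, SE 0.09, adjusted p = 2.47e-07). E2F2 (0.10, SE 0.11), E2F3 (-0.23, SE 0.12) and E2F8 (0.09, SE 0.13) did not differ past the threshold.

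By the rule of the study, a 2-fold odds ratio and an adjusted p under 0.001 by Fisher's exact test in every one of the 4 pairings of 1 control library with 1 miR-137 library, E2F1 was lower in all 4 experiments. It was the only member so called in U251 RNASeq and RIPSeq and in U343 RIPSeq, where 2.21%, 1.49% and 3.40% of all genes were. U343 RNASeq had 4 members by that rule, E2F1, E2F2, E2F7 and E2F8, with 2.88% of all genes. The odds ratios of control over miR-137 for E2F1 ran from 3.65 to 4.198 in U251 RNASeq, from 3.61 to 8.33 in U251 RIPSeq, from 2.29 to 2.83 in U343 RNASeq and from 2.03 to 2.59 in U343 RIPSeq. In U343 RIPSeq E2F2 met it in 3 of 4 pairs (odds ratios of 1.79 to 3.24), and E2F7 and E2F8 in 2. Mirrored for rises, the rule called only E2F5 in U251 RNASeq, with miR-137 over control in all 4 pairs. With totals scaled by the TMM factors it called 0 members higher there. The share of all genes called for rises is not reported here. This rule compares libraries and does not use the spread between replicates.

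Members were also compared across the 16 libraries by log2(CPM + 1), with the mean of each experiment taken off. Here CPM were scaled to plain library totals, without the TMM factors, and some members varied together. E2F1 followed E2F2 (Pearson r 0.81) and ran against E2F5 (-0.92). E2F3, E2F6, E2F7 and E2F8 went together, with r between 0.68 and 0.90 within the set, and E2F2 followed E2F8 (0.77). E2F4 followed none of them, with no r beyond 0.27 in size. These values describe 16 libraries, both groups of each experiment among them, and genes of a library share its depth and scaling.

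Among 9240 genes expressed at 5 CPM or more on average in each experiment, the 3 closest to each member were found by the same measure, and those reported here follow. HNRNPH1, C11orf2 and LRRC45 were close to E2F1 (r of 0.99, 0.99 and 0.99), TRIP13 and FANCE to E2F2 (0.97 and 0.97) and AKAP10, EPB41L5 and ZNF37B to E2F3 (0.97, 0.96 and 0.96). For E2F4 they were KRBA1, NOP2 and CCDC71 (0.98, 0.98 and 0.97), for E2F5 HRH1, DNAJC16 and C15orf57 (0.96 each), and for E2F6 EXOSC10, MARS2 and CENPO (0.95, 0.92 and 0.91). E2F7 had SLC11A2, SNRK and TPR (0.98, 0.96 and 0.95). E2F8 had BRCA1, a repair gene of the G1/S list, UBE2T and SLC43A3 (0.96, 0.96 and 0.95).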

How the data were processed

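Counts of reads per gene were analysed in 16 libraries. The authors used RMAP and the hg18 build, merged the RefSeq isoforms of each gene into 1 model for counting, and deposited raw counts. How reads with several matches were counted is not given in the sources used here. Groups followed the titles. Members, lists and named genes were chosen with earlier results of these data known. Each comparison used edgeR 4.0.16 (R 4.3.3) with TMM scaling, filterByExpr, the quasi-likelihood F test and Benjamini-Hochberg adjustment over all genes tested, at 0.05. The code was tested on simulated data. CPM values are counts scaled to the TMM-adjusted library size, set within each comparison, except in the correlations, which used plain library totals. Reads were not compared between genes because no transcript lengths were used. DESeq2 1.42.0, upper-quartile scaling, other filters, the replicate number as a block, a joint fit per line and leaving out each library were the alternatives. Named genes were the 8 members, the 3 genes most like each, the partners and pocket proteins and, per experiment, at most 2 called genes with the lowest and 2 with the highest change and 50 reads. SLC35E2 stands on 2 lines of the U251 tables and the first was kept. RefSeq tables (GRCh38.p14) gave the sequences, and hg18 positions are from the deposited files. Some named genes are not reported here.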

Additional observations from a re-analysis of the deposited data

Results flagged for a closer look

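The change with miR-137 in total RNA differed between the cell lines, by the interaction term of the edgeR fit, for 6 of the 8 E2F genes, and these are the values that call for a closer look. The U343 change minus the U251 change was 0.91 on the log2 scale for E2F1, -1.08 for E2F2, -1.45 for E2F3, -0.997 for E2F6, -1.79 for E2F7 and -1.48 for E2F8. For E2F1 and E2F2 both lines had a fall, larger in U251 for E2F1 and larger in U343 for E2F2. For E2F3 and E2F7 the lines went opposite ways, with 44.4 and 35.1 CPM of E2F3 in the U251 miR-137 libraries above 26.0 and 22.9 CPM in their controls, and 9.95 and 14.2 CPM in U343 below 19.7 and 20.6 CPM. Within the lines some of these changes were not firm. By edgeR the E2F3 fall in U343 RNASeq did not pass (adjusted p = 0.0722). The U251 RNASeq rises of E2F3 and E2F7 were lost in the joint fit of 8 libraries (adjusted p = 0.0763 and 0.424). Cell line and library kit cannot be told apart in these differences. E2F6 lost its call without any of 3 single libraries.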

How the results depend on the processing

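Of 952 values of single E2F genes under the alternatives, 825 kept their direction and their side of the threshold, 35 were no longer called, 62 became called and 30 changed sign, of which 1 was past the threshold in either fit. With 2 libraries a group the count of calls depends on single libraries, above all in U251 RIPSeq and U343 RNASeq. A fit that leaves 1 control takes its spread from the miR-137 pair, and the reverse. In U343 RNASeq the controls differed by a median of 0.10 on the log2 scale and the miR-137 libraries by 0.23. In U251 RIPSeq these medians were 0.67 and 0.06. The causes were not tested.

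In DESeq2, 1 member was lower in U251 RIPSeq, 1 higher in U343 RNASeq, 1 higher in the U343 difference between assays, 1 lower and 1 higher in the RIPSeq difference between lines, and 1 higher in U251 PABP-bound over total RNA, and E2F8 in U251 RNASeq was at -0.046. With no filter beyond 1 read, 2 members were higher in U251 RNASeq, E2F8 was at -0.055 there and E2F3 at -0.028 in U251 PABP-bound over total RNA. Upper-quartile scaling put E2F8 at -0.0040 in the U251 difference between assays and E2F6 at -0.011 in U343 PABP-bound over total RNA. In the joint fit, 0 members were higher in U251 RNASeq, 2 lower in U251 RIPSeq and 1 higher in U343 RNASeq. E2F3 and E2F6 lost their U343 RIPSeq calls in it. By the study's rule, an odds ratio over 1.5 gave 2 higher in U251 RNASeq, 2 lower in U251 RIPSeq and 4 lower in U343 RIPSeq. TMM-scaled totals gave 0 higher in U251 RNASeq, and 3 of 4 pairs gave 2 lower in U343 RIPSeq.

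Replicate numbers are shared across groups, but deviations of same-numbered libraries correlated at 0.06, -0.06, 0.12 and 0.40 in the 4 experiments and each has only 2 pairs, so the number was taken as a name. With the replicate block, 1 member was lower in U251 RIPSeq, 1 higher in U251 PABP-bound over total RNA and 2 lower in U343 PABP-bound over total RNA, and E2F8 in U251 RNASeq was at -0.0034.

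Leaving out 1 library at a time gave 2 to 3 members higher in U251 RNASeq, 0 to 3 lower and 0 to 5 higher in U251 RIPSeq, 0 to 6 lower and 0 to 1 higher in U343 RNASeq and 1 to 2 higher in U343 RIPSeq. The differences between assays gave 0 to 2 lower in U251 and 0 to 3 higher in U343, and those between lines 3 to 5 lower in RNASeq and 0 to 5 lower and 0 to 2 higher in RIPSeq. PABP-bound over total RNA gave 0 to 3 lower and 0 to 3 higher in U251 and 1 to 2 lower in U343, and U343 over U251 gave 1 to 2 lower. The study's rule gave 1 to 2 lower in U251 RIPSeq and 1 to 3 lower in U343 RIPSeq.

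Single genes changed sign in some of those fits. E2F8 ran from -0.13 to 0.12 in U251 RNASeq, and in U251 RIPSeq E2F4 ran from -0.54 to 0.021, E2F6 from -0.19 to 0.56 and E2F7 from -0.70 to 0.58. In the difference between assays in U251, E2F1 ran from -0.73 to 0.23, E2F3 from -0.34 to 0.26, E2F5 from -0.60 to 0.17, E2F6 from -0.46 to 0.16 and E2F7 from -1.02 to 0.14, and in U343 E2F5 ran from -0.16 to 0.079. In the RIPSeq difference between lines E2F2 ran from -0.40 to 0.10 and E2F5 from -0.55 to 0.26. In PABP-bound over total RNA, E2F3 ran from -0.28 to 0.37 and E2F5 from -0.0027 to 0.81 in U251, and E2F3 from -0.089 to 0.037 and E2F6 from -0.061 to 0.11 in U343. E2F8 ran from -0.026 to 0.22 in U343 over U251.

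The G1/S list had 11 to 24 genes lower in U251 RNASeq under the other alternatives and the G2/M list 0 to 8. That those lists' calls were followed under the alternatives was decided after seeing the data. Levels per transcript length were not run.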
